A study of Mus musculus with 8 samples.

Results

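Hox genes encode homeodomain transcription factors that lie in 4 clusters, HoxA to HoxD, and are numbered in the order in which they lie along a cluster. Genes with the same number in different clusters form a paralog group. Low numbers are active in anterior parts of the embryo and high numbers in posterior parts, and the set of Hox genes that a cell keeps on after development carries the mark of the position it came from. Hoxb13, which lies apart from the other HoxB genes, is a known marker of the prostate epithelium. The Hox genes were taken here as all genes whose name is Hox, a cluster letter from a to d and a number, which gave 39 of the 38115 genes counted. Of these, 11 were in HoxA, 10 in HoxB, 9 in HoxC and 9 in HoxD.

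RNA was sequenced from 8 Myc-CaP tumors, with 2 tumors in each of 4 groups, namely primary androgen sensitive (primary AS), metastatic androgen sensitive (metastatic AS), primary castrate resistant (primary CR) and metastatic castrate resistant (metastatic CR). Myc-CaP is a cell line grown from a prostate carcinoma of a FVB mouse that carries a human MYC transgene under a probasin promoter, so every group shares that transgene. Cells of the AS line or of the CR line were placed in the anterior prostate lobes of male FVB mice that were intact or castrated before surgery, and the age of the mice and the castration of each host were not given in the sources used here. Each phenotype therefore comes from a single cell line, so that phenotype, cell line and host cannot be told apart. The labels of the AS and CR tumors also carry RS numbers from separate ranges, and what these numbers stand for was not given. Any batch that follows them cannot be told apart from phenotype either. The tumors are numbered 1 and 2 within a group, and the organ of each metastasis was not given. The labels call the metastases matched but do not say which primary tumor each goes with, so the tumors were taken as independent in the tests of phenotype. Where nothing states that tumors came from separate mice, p-values measure only the spread between these tumors. In a bulk tumor, fewer cells of a type and less RNA per cell cannot be told apart.

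Total counts ranged from 20905806 in metastatic CR2 to 91886163 in metastatic AS2. Metastatic CR2 held 1056 genes with a count in no other tumor and metastatic AS2 held 823, against 130 to 263 in the other tumors, and the changes by phenotype that were called, or lay in HoxB, are given without metastatic CR2 too. Of the luminal prostate markers, Foxa1 and Krt8 were at 1 CPM or more, where CPM is the count per 1000000 counts of library size, in every tumor, and Krt18, Epcam, Cdh1, Pbsn, Tmprss2 and Spdef were under 1 CPM in every tumor. Markers of fibroblasts and smooth muscle, endothelium and macrophages were counted in all tumors, at summed levels of 58.4 to 119 CPM, 42.5 to 87.9 CPM and 92.3 to 253 CPM. The 4 lung epithelium markers, the 6 T and B cell markers and the 4 seminal vesicle markers were under 1 CPM in every tumor.

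The Myc-CaP tumors used a small part of the Hox repertoire. Levels of different genes were compared as RPKM, CPM per 1000 bases of exon, and a gene was called on at 1 RPKM or more. By this measure 6 of 39 genes were on in all 8 tumors, 5 were on in some tumors and 28 were on in none. The genes on in every tumor were Hoxa6, Hoxa7, Hoxb9, Hoxb13, Hoxd4 and Hoxd8. Hoxa5 was on in 7 tumors, Hoxd9 in 6, Hoxb6 and Hoxd3 in 4 each and Hoxb4 in 1. The number on per tumor was 7 in both primary AS tumors, 8 in metastatic AS1, 9 in metastatic AS2 and primary CR2, and 10 in primary CR1 and both metastatic CR tumors.

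The genes that were on lay in the middle of the clusters. HoxA had 3 of 11 genes on in at least 1 tumor, HoxB 4 of 10, HoxD 4 of 9 and HoxC 0 of 9. No gene of paralog groups 1, 2, 10, 11 or 12 was on in any tumor. In paralog group 13 Hoxb13 was on and the other members, Hoxa13, Hoxc13 and Hoxd13, were not. The HoxC genes together had 7 to 41 counts per tumor, in libraries of 20905806 counts or more, and their highest single level was 0.131 RPKM for Hoxc13. Of the genes never on, Hoxb7 came nearest to the threshold with 0.995 RPKM in metastatic CR2, and Hoxb4 was just above it in the same tumor with 1.21 RPKM.

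**Figure D1:**
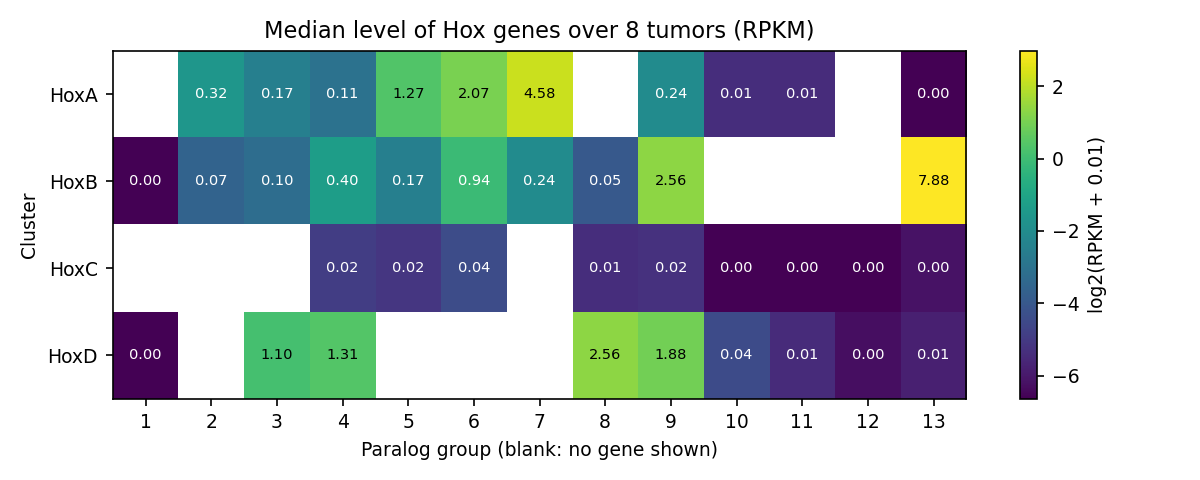
Median level of 38 Hox genes over the 8 tumors, in RPKM, with clusters as rows and paralog groups as columns. The number in a cell is the median RPKM, the color is its log2 after adding 0.01, and white cells show no gene. The bright cells are Hoxb13 at 7.88 and Hoxa7 at 4.58, the middle columns hold most of the rest, and the HoxC row stays at or under 0.04.

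Ordered by median RPKM, Hoxb13 came at the top with 7.88, followed by Hoxa7 with 4.58, Hoxd8 with 2.56, Hoxb9 with 2.56, Hoxa6 with 2.07, Hoxd9 with 1.88, Hoxd4 with 1.31, Hoxa5 with 1.27 and Hoxd3 with 1.10. Neighbors in this order overlapped: Hoxb13 ranged from 2.79 to 21.9 RPKM over the tumors and Hoxa7 from 3.98 to 7.54 RPKM. Hoxd8 ranged from 1.69 to 4.997 RPKM and Hoxb9 from 1.35 to 9.42 RPKM. Over the 39 genes the Spearman correlation of CPM between pairs of tumors was 0.790 to 0.974, with a median of 0.869 over 28 pairs. This describes a shared order of levels across genes, which are not independent replicates.

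In HoxD the step from on to off fell between the neighboring genes Hoxd9 and Hoxd10 in 6 tumors. In primary AS1 and metastatic AS1, where Hoxd9 was at 0.740 and 0.913 RPKM, it fell between Hoxd8 and Hoxd9. Hoxd9 reached 3.68 RPKM, while Hoxd10 never exceeded 0.134 RPKM. RefSeq gives start-site promoters for 22 of the 39 Hox genes in build GRCm38.p6, the build called mm10, and those of the 4 genes around this step are shown, each a window of 300 bases around the start, on the plus strand of chromosome 2. They were chosen after the levels were seen, and where a gene had several listed starts the most upstream was taken. Capitals mark matches on either strand. The motif of the box named after TATA was TATAAA, that of the GC box was CCGCCC, that of the caudal type was TTTATG and that of the homeodomain core was TAATTA. The box named after CCAAT was searched by those letters. No motif contains another.
Hoxd8, chr2:74704365-74704664: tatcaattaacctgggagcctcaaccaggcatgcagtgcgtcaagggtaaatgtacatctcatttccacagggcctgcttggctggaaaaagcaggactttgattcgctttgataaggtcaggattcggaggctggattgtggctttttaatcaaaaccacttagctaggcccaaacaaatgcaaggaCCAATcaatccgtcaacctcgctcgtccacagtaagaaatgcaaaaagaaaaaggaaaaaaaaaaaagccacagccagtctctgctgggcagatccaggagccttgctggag
Hoxd9, chr2:74697513-74697812: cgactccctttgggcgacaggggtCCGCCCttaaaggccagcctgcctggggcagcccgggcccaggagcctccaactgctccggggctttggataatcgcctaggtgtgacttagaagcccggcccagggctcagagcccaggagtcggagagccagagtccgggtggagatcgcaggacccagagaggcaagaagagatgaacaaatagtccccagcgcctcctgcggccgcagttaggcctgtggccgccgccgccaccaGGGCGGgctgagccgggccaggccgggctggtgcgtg
Hoxd10, chr2:74691641-74691940: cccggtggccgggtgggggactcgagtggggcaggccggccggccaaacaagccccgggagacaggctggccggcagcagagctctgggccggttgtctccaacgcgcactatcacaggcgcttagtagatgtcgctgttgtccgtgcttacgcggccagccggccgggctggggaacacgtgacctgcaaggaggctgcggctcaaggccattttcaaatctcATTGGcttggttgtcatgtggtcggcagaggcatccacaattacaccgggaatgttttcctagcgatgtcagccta
Hoxd11, chr2:74679308-74679607: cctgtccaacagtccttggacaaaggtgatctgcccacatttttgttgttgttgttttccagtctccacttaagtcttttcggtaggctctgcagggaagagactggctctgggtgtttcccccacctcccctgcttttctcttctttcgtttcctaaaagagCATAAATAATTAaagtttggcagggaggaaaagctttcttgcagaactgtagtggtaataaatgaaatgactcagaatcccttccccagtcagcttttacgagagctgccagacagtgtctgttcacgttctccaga

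Hoxd8 was on in 8 tumors, Hoxd9 in 6, and Hoxd10 and Hoxd11 in 0. Whether the CpG content of these 4 windows goes with the levels was not tested. Hoxd9 held 20 CpG and Hoxd10 held 22 CpG, while Hoxd8 held 6 and Hoxd11 held 4. Hoxd9 had 2 GC boxes, Hoxd8 and Hoxd10 had 1 CCAAT box each, and Hoxd11 had 1 caudal type match and 1 homeodomain core. Of all 32851 RefSeq promoters of this length, 35.7% held the GC box, 37.4% the CCAAT box, 13.6% the TATA box, 11.9% the caudal type motif and 5.29% the homeodomain core. The median number of CpG was 14.5 over the 24 Hox promoters listed and 7 over all promoters. It was 17 over the 8 promoters of genes on in at least 1 tumor and 14 over the 16 promoters of genes never on.

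Hoxb13 (chromosome 11, 96194316 to 96197447, plus strand) was on in every tumor and varied widely between the primary CR tumors. Its level was 10.5 and 13.4 CPM in the primary AS tumors and 24.9 and 21.4 CPM in the metastatic AS tumors. It was 48.3 and 6.15 CPM in the primary CR tumors and 32.7 and 13.3 CPM in the metastatic CR tumors. The primary CR tumors thus held both the highest and the lowest level of the series, 7.84-fold apart, and the AS range lay inside the CR range. The counts behind these values were 126 in primary CR2 and up to 3924 in primary CR1, and the gene shares no exon bases with another annotated gene.

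The difference of Hoxb13 by phenotype or tumor type was within the spread of the tumors when all 8 were taken. The mean level was 17.5 ± 6.72 CPM in AS tumors and 25.1 ± 19.1 CPM in CR tumors (SD, n = 4 each). The difference of CR minus AS in mean log2(CPM + 1) was 0.20, with p = 0.8 in an exact two-sided permutation test. Without primary CR1 this difference was -0.22, and without metastatic CR1 it was -0.04. The mean was 19.6 ± 19.3 CPM in primary and 23.1 ± 8.06 CPM in metastatic tumors (SD, n = 4 each), a difference of metastatic minus primary of 0.56 in log2(CPM + 1) with exact permutation p = 0.4. The smallest p that 4 against 4 tumors allow is 0.0286. Within primary tumors the edgeR estimate of CR over AS was 1.20 on the log2 scale (SE 0.79, adjusted p = 0.548), and it passed only with every gene of at least 1 count kept (1.19, SE 0.34, adjusted p = 0.0164). It was -0.98 without primary CR1. Within AS tumors both metastases were above both primary tumors, and the edgeR estimate of metastatic over primary was 0.95 on the log2 scale (SE 0.78, unadjusted p = 0.258).

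The other genes on in every tumor came from the middle groups of HoxA, HoxB and HoxD. Hoxa7, which patterns the thoracic region of the embryo, was the most even of them, with 11.4, 11.5, 12.1 and 14.2 CPM in primary AS1, primary AS2, metastatic AS1 and metastatic AS2. In primary CR1, primary CR2, metastatic CR1 and metastatic CR2 it had 16.1, 21.7, 15.5 and 12.2 CPM. Only metastatic CR2 of the CR tumors fell within the AS range. Hoxa6, its neighbor, had 1.45 to 1.83 CPM in AS tumors and 1.06, 2.69, 2.62 and 2.14 CPM in the CR tumors, in the same order. Hoxa5, a neighbor of Hoxa6 known for its part in lung development, had 2.48, 1.60, 1.91 and 2.30 CPM in the AS tumors and 2.19, 3.71, 3.37 and 2.71 CPM in the CR tumors. Both genes overlapped between phenotypes. Part of the exon bases of Hoxa7, 20.4%, are shared with the antisense gene Hoxaas3, whereas Hoxa5 and Hoxa6 share none.

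In HoxD the levels of Hoxd3, Hoxd4 and Hoxd8 were higher in most CR tumors. Hoxd8 had 4.64, 5.99, 5.77 and 8.07 CPM in the AS tumors and 13.7, 11.6, 10.2 and 5.38 CPM in the CR tumors. Hoxd4 had 3.18, 3.83, 3.80 and 3.91 CPM in the AS tumors and 5.53, 6.93, 5.64 and 3.72 CPM in the CR tumors. Hoxd3 had 3.998, 4.12, 3.91 and 5.09 CPM in the AS tumors and 7.08, 7.86, 6.34 and 3.88 CPM in the CR tumors. In all of them metastatic CR2 lay within or below the AS range, and the other CR tumors lay above it. Hoxd3 and Hoxd4 share exons on the same strand, 62.8% of the exon bases of Hoxd3 and 52.3% of those of Hoxd4 being shared with another gene, so how the reads were divided between them is uncertain.

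**Figure D2:**
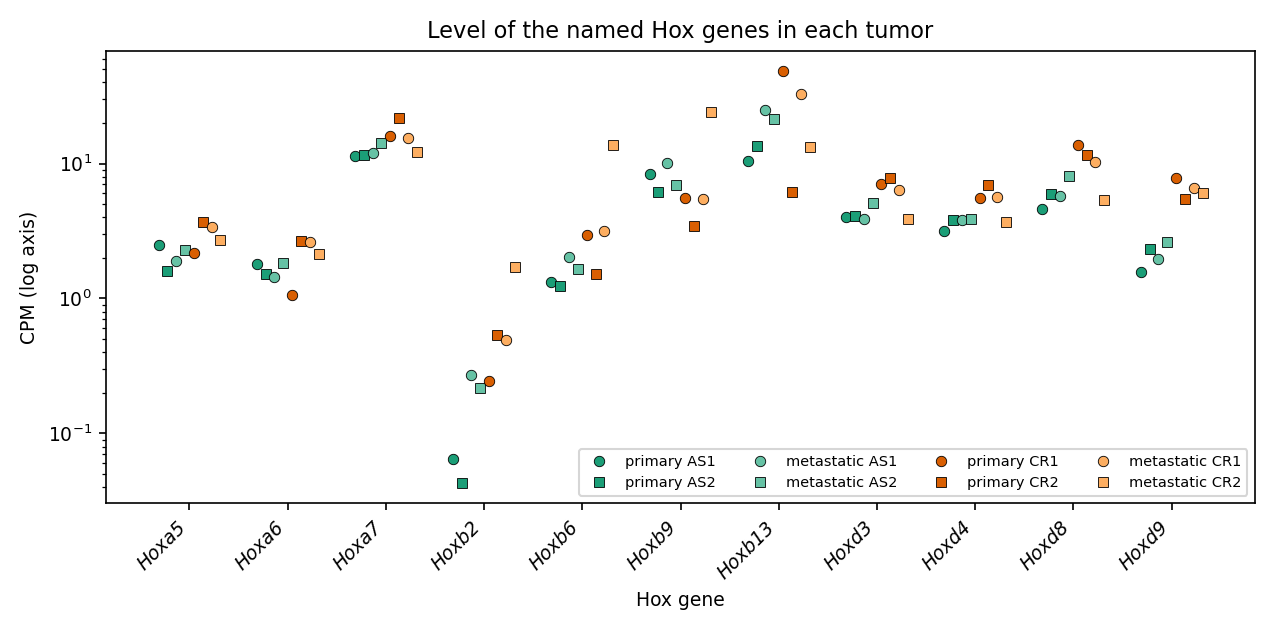
Level of each named Hox gene in each of the 8 tumors, in CPM on a log axis, with green for AS and orange for CR tumors, darker shades for primary tumors, circles for tumor 1 and squares for tumor 2. Hoxd9 is the gene with all 4 CR points, 5.42 to 7.87 CPM, clear of all 4 AS points, 1.58 to 2.62 CPM, and Hoxb13 has its highest and lowest points in the primary CR tumors.

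CR tumors were compared with AS tumors to find which Hox genes differ between the phenotypes, each from a single cell line. Of 21 Hox genes tested 2 passed, Hoxd9 and Hoxb2, both higher in CR tumors, where 6.16% of all genes were higher. No Hox gene passed as lower, against 6.01% of all genes. Hoxd9 (chromosome 2, 74697727 to 74700208, plus strand), a posterior HoxD gene that acts in limb and lumbar patterning, had 1.58 and 2.33 CPM in the primary AS tumors and 1.95 and 2.62 CPM in the metastatic AS tumors. It had 7.87 and 5.42 CPM in the primary CR tumors and 6.63 and 6.06 CPM in the metastatic CR tumors. Every CR tumor was at least 5.42 CPM and every AS tumor at most 2.62 CPM, so the groups did not overlap. The log2 fold change of CR over AS was 1.64 (SE 0.24, edgeR quasi-likelihood test, adjusted p = 0.0072). The gene shares no exon bases with another gene, and it passed under every alternative that was fitted, also without metastatic CR2 and without any other single tumor, with adjusted p up to 0.0375, and up to 0.0496 over all alternatives. With each of the 4 possible pairings of matched tumors as a correlated block in limma-voom, adjusted p was 0.00295 to 0.00735.

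Hoxd9 was also higher in CR tumors of each tumor type taken alone, but did not pass there. The log2 fold change was 1.77 (SE 0.36) in primary tumors and 1.47 (SE 0.35) in metastatic tumors, with adjusted p = 0.0992 and 0.0919 in edgeR. The interaction of phenotype and tumor type was -0.29 (SE 0.49, adjusted p = 0.97).

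Hoxb2 (chromosome 11, 96350525 to 96354012, plus strand), an anterior gene active in the hindbrain, was the other gene that passed, at levels of up to 0.487 RPKM, in metastatic CR2, which is 1.04 RPKM by the length of its longest coding transcript. It had 4 and 3 counts in the primary AS tumors, 21 and 22 in the metastatic AS tumors, 20 and 11 in the primary CR tumors, and 17 and 42 in the metastatic CR tumors. In CPM this was 0.06, 0.04, 0.27 and 0.22 in the AS tumors and 0.25, 0.54, 0.49 and 1.70 in the CR tumors, in the order primary 1, primary 2, metastatic 1, metastatic 2, so that the groups overlapped at primary CR1. The log2 fold change was 2.42 (SE 0.54, adjusted p = 0.0251). It no longer passed without metastatic CR2 (1.96, adjusted p = 0.0837), nor without primary AS1, primary AS2, metastatic AS1, metastatic AS2 or primary CR2 in turn (adjusted p = 0.0566 to 0.0879). Of its exon bases, 27.3% are shared with Hoxb3os, an antisense RNA that also rose in CR tumors, and whether the counting used strand was not given in the sources used here, so reads of the pair cannot be told apart.

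These calls were set against all genes tested. Of 17104 genes, 12.2% passed in either direction, 6.16% higher and 6.01% lower in CR tumors, against 2 of the 21 Hox genes that had enough counts to be tested. The other 18 Hox genes were filtered out for low counts. The Hox genes leaned the same way: 20 of the 21 had a log2 fold change above 0, with a median of 0.75, while the median of all genes was -0.01. At an unadjusted p under 0.05 there were 11 of 21 Hox genes and 28.8% of all genes. In 4 Hox genes, Hoxa9, Hoxb3, Hoxb4 and Hoxd9, every CR tumor was above every AS tumor, as in 8.38% of all genes, and in 0 Hox genes every CR tumor was below, as in 10.3% of all genes. The 21 genes lie in 3 clusters and share tumors, so they are not independent.

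**Figure D3:**
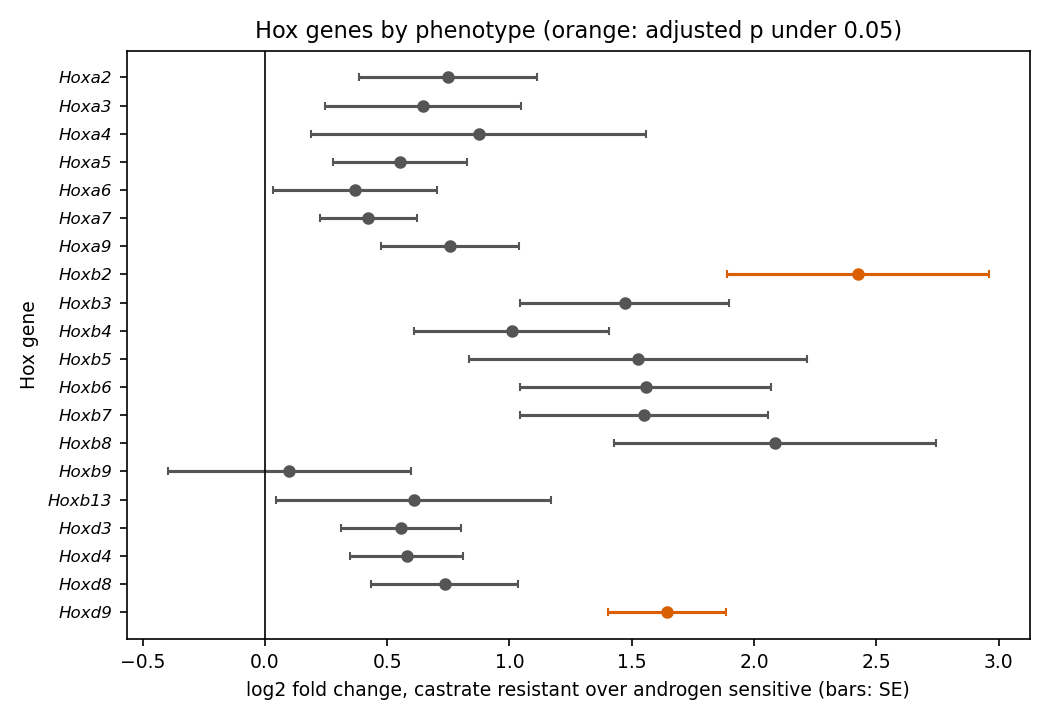
The log2 fold change of castrate resistant over androgen sensitive tumors for 20 Hox genes tested, with bars for 1 SE from edgeR and orange for adjusted p under 0.05. Hoxb2 at 2.42 and Hoxd9 at 1.64 are the orange points, and the HoxB genes from Hoxb3 to Hoxb8 lie at 1.01 to 2.09.

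The larger changes of the remaining genes were in HoxB, from Hoxb3 to Hoxb8. These were 1.47 for Hoxb3 (adjusted p = 0.0564), 1.01 for Hoxb4 (adjusted p = 0.135), 1.52 for Hoxb5 (adjusted p = 0.184), 1.56 for Hoxb6 (adjusted p = 0.0816), 1.55 for Hoxb7 (adjusted p = 0.0795) and 2.09 for Hoxb8 (adjusted p = 0.0714), and none passed in edgeR. For Hoxb3, 52.9% of the exon bases are shared with Hoxb3os and Gm11536 on the other strand. With the strand setting not given, reads of Hoxb3 cannot be told apart from theirs, as for Hoxb2. DESeq2 gave 7 Hox genes, adding Hoxa9, Hoxb3, Hoxb6, Hoxb7 and Hoxb8 to Hoxb2 and Hoxd9, where it called 20.7% of all genes. Without metastatic CR2 the edgeR changes were 1.02 for Hoxb3, 0.55 for Hoxb4, 0.91 for Hoxb5, 0.82 for Hoxb6, 1.27 for Hoxb7 and 1.27 for Hoxb8, with adjusted p of 0.126 to 0.437. Hoxb9 did not go with its neighbors: its log2 fold change was 0.10 (SE 0.50, adjusted p = 0.915), and it was -0.65 without metastatic CR2. In HoxA none of the 8 genes tested passed, with 0.87 for Hoxa4 as the largest change and 0.114 as the smallest adjusted p. In HoxD the changes of Hoxd3, Hoxd4 and Hoxd8 were 0.56, 0.58 and 0.73 (adjusted p = 0.171, 0.137 and 0.145). For Hoxb13 the change was 0.61 (SE 0.56, adjusted p = 0.514), and without primary CR1 it was -0.33.

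Some cell type markers moved with phenotype as well, where 6.16% of all genes were higher and 6.01% lower in CR tumors. Of 5 luminal prostate markers tested, 1 passed, Krt8, a luminal keratin. It had 36.8 to 168 CPM in AS and 260 to 721 CPM in CR tumors. The median log2 fold change of the 5 was 0.05. Of 3 basal markers tested, 1 passed, Trp63, a basal cell factor. It had 3.33 to 4.03 CPM in AS and 0.244 to 1.58 CPM in CR tumors. The 4 basal markers summed to 93.4 to 413 CPM in AS and 16.5 to 440 CPM in CR tumors. Ttr, of 2 hepatocyte markers tested, and Tnnt3, of 2 skeletal muscle markers tested, also passed, both lower in CR tumors. Total counts were 61237285 to 91886163 in AS and 20905806 to 76887592 in CR tumors. The part of any of these in the Hox values was not tested.

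Metastatic tumors were compared with primary tumors to find Hox genes that change with spread, and none passed. In edgeR 0 of 21 Hox genes had an adjusted p under 0.05, and the share of all genes that passed was 0%. At an unadjusted p under 0.05 there was 1 Hox gene, Hoxb6, and 2.68% of all genes. This fit left phenotype out. With phenotype as a covariate 0 Hox genes passed, and unadjusted there were 2 Hox genes and 1146 of 17104 genes. DESeq2 gave 0 Hox genes adjusted, with 0% of all genes, and 2 unadjusted, with 611 of 17104 genes. The median log2 fold change of metastatic over primary was 0.21 for the 21 Hox genes and -0.03 for all genes. In 0 Hox genes all metastatic tumors were above or below all primary tumors, as they were above in 0.789% and below in 0.889% of all genes. For Hoxd9 the change was 0.02 (SE 0.58), for Hoxd8 it was -0.27 (SE 0.38) and for Hoxa7 it was -0.16 (SE 0.25). The interaction of phenotype with tumor type was called for 0 of 28 Hox genes and 0% of 18889 genes in edgeR. Unadjusted, 2 Hox genes, Hoxd11 and Hoxd13, had p under 0.05, against 2.74% of all genes. DESeq2 called 0 Hox genes and 2 of all 18889 genes, and had 2 Hox genes unadjusted, with 570 of all genes.

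Within a phenotype or a tumor type the comparisons rest on 2 tumors a side. Within primary tumors 0 of 28 Hox genes passed by phenotype, against 0.296% of all genes (0.164% higher and 0.132% lower in CR tumors). Within metastatic tumors it was 0 of 28, against 0.36% (0.132% higher and 0.228% lower). At an unadjusted p under 0.05 there were 7 Hox genes in each, against 14.2% of all genes in primary and 19.9% in metastatic tumors. DESeq2 called Hoxd8 and Hoxd9 within primary tumors, with 4.44% of all genes, and Hoxb6 and Hoxd9 within metastatic tumors, with 8.76% of all genes. Metastatic over primary gave 0 of 28 within AS tumors (0% of all genes), with 1 Hox gene and 2.45% of all genes at an unadjusted p under 0.05, and 0 of 28 within CR tumors (0% of all genes), with 3 Hox genes and 7.74% of all genes unadjusted. DESeq2 called 0 Hox genes in each, with 11 and 14 of all 18889 genes. Unadjusted it gave 1 Hox gene within AS tumors (583 of all genes) and 3 within CR tumors (1564 of all genes).

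The HoxB cluster stood apart in a single tumor, metastatic CR2. The 9 HoxB genes other than Hoxb13 summed to 50.01 CPM there and to 9.71 to 14.01 CPM in the other 7 tumors, 3.57-fold above the highest of them. Hoxb9, the most abundant of these genes, had 24.3 CPM in metastatic CR2, against 8.34, 6.19, 10.1 and 6.98 CPM in the AS tumors, 5.57 and 3.47 CPM in the primary CR tumors and 5.47 CPM in metastatic CR1. Hoxb6 had 13.8 CPM in metastatic CR2, against 1.32, 1.24, 2.03 and 1.65 CPM in the AS tumors, 2.95 and 1.51 CPM in the primary CR tumors and 3.14 CPM in metastatic CR1. All 9 genes had their highest level in metastatic CR2, from 1.39-fold above the highest other tumor for Hoxb5 to 4.39-fold for Hoxb6 among the genes counted in every tumor. The share of all genes that were highest in metastatic CR2 was not determined, so how unusual this is cannot be said. Hoxb1, the most anterior member, had 24 counts (0.97 CPM) in metastatic CR2 and at most 0.0981 CPM elsewhere.

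**Figure D4:**
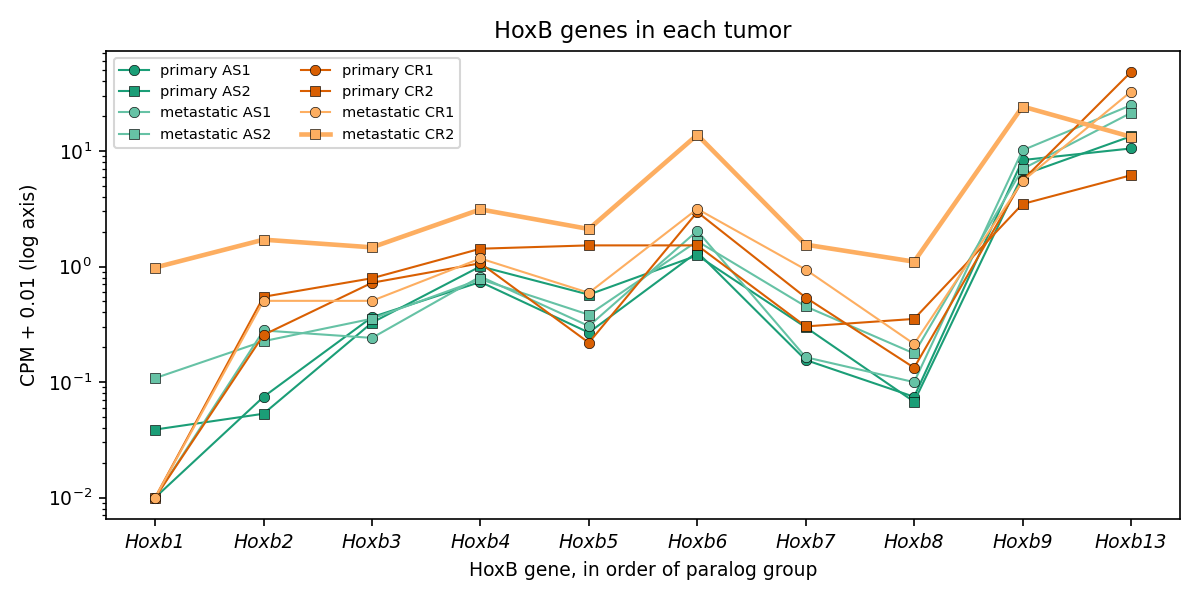
CPM of each HoxB gene in each tumor, on a log axis after adding 0.01 CPM, with genes in order of paralog group and 1 line per tumor. The thick line is metastatic CR2, which lies above all other tumors from Hoxb1 to Hoxb9 and, at 13.3 CPM, among them at Hoxb13.

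The higher HoxB level in metastatic CR2 did not extend to Hoxb13, nor to the summed levels of HoxA and HoxD. Hoxb13 was at 13.3 CPM there, within its range in the other tumors. HoxA summed to 21.4 CPM in metastatic CR2 and to 17.3 to 33.6 CPM in the other tumors, and HoxD to 20.98 CPM against 14.01 to 34.2 CPM. HoxC summed to 1.37 CPM there, from 34 counts, and to 0.0984 to 1.07 CPM elsewhere. These sums rest on the abundant genes, and some scarce genes were highest in metastatic CR2. The 5 HoxD genes never on had their highest levels there, 0.202 to 0.889 CPM from 5 to 22 counts. Paralog groups 10 to 13 without Hoxb13 summed to 2.83 CPM there and to 0.0615 to 1.53 CPM elsewhere. Of the genes flanking HoxB, Skap1, a T cell adaptor that lies beyond Hoxb1, had 2.55 CPM in metastatic CR2 and at most 0.235 CPM in the others, and Ttll6, near Hoxb13, had 1.09 CPM and at most 0.0977 CPM. The endothelial markers summed to 80.4 CPM there, second to 87.9 CPM in metastatic AS2, and T and B cell markers to 0.526 CPM. In a tumor with 1056 genes counted nowhere else, the part of these in the HoxB values was not tested.

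The 11 genes of paralog groups 10 to 13 other than Hoxb13 were near 0. Their summed counts were 95, 13, 14 and 51 in the AS tumors and 5, 12, 9 and 70 in the CR tumors, in the order primary 1, primary 2, metastatic 1, metastatic 2. Primary AS1 and metastatic CR2 held the most. Scaled to library size, metastatic CR2 was the higher of these, with 2.83 CPM against 1.53 CPM in primary AS1. In primary AS1 these were mainly 36 counts of Hoxa13 and 19 of Hoxd11, genes of the urogenital and distal limb regions, with 15 of Hoxa10 and 14 of Hoxd13. Primary AS1 also held 34 counts of Pbsn, a secreted protein of the prostate, against 0 or 1 in the others. It held 641 counts of Myh11 and 499 of Des, muscle genes, against at most 184 and 170 in the others. The 9 fibroblast and smooth muscle markers, Myh11 and Des among them, summed to 94.5 CPM in primary AS1. This lay inside the range of 58.4 to 119 CPM over all tumors. The 4 skeletal muscle markers summed to 2.32 CPM in primary AS1, in a range of 0.733 to 14.7 CPM. Whether the Hox counts of primary AS1 go with any of these markers was not tested. In metastatic CR2 the most were 22 counts of Hoxd11. In CPM, Hoxd11 was at 0.889 in metastatic CR2 and 0.306 in primary AS1, and Hoxa13 at 0.243 and 0.580. A total of 3 counts, the limit that a count of 0 allows, is 0.0294 to 0.147 CPM in these libraries, so a count of 0 leaves room for levels under it.

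Genes that act with or around the Hox clusters were taken from 6 lists. Of 8 tested cofactors that bind DNA together with Hox proteins, 1 was higher in CR tumors, against 6.16% of all genes. This was Meis1, with 37.1, 37.6, 44.0 and 35.3 CPM in the AS tumors and 48.9, 61.5, 73.4 and 49.97 CPM in the CR tumors (log2 fold change 0.63, SE 0.17, adjusted p = 0.0429), so that every CR tumor was above every AS tumor. Without metastatic CR2 it was 0.71 (adjusted p = 0.0509), and adjusted p was 0.0173 to 0.14 with 1 tumor left out, passing only without primary CR1. Of 6 noncoding RNA genes of the clusters tested, 1 was higher, against the same 6.16%. This was Hoxb3os, with 0.258, 0.432, 0.449 and 0.490 CPM in the AS tumors and 1.01, 1.42, 1.28 and 2.71 CPM in the CR tumors (log2 fold change 1.97, SE 0.37, adjusted p = 0.0156). Without metastatic CR2 it was 1.66 (adjusted p = 0.0371), and it did not pass without metastatic AS1 or metastatic AS2 (adjusted p = 0.0659 and 0.061).

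The remaining lists held 1 call. Of 16 genes of Polycomb repressive complex 1, which keeps Hox genes silent, 1, Cbx8, was lower, against 6.01% of all genes, with 7.43, 8.13, 8.29 and 6.61 CPM in the AS tumors and 6.35, 4.74, 3.46 and 3.11 CPM in the CR tumors (log2 fold change -0.80, SE 0.22, adjusted p = 0.0458). Without metastatic CR2 it was -0.71 (adjusted p = 0.108), and with 1 tumor left out it passed only without primary CR1 (adjusted p = 0.011). None of 10 genes flanking the clusters passed (Skap2 had the smallest p, adjusted p = 0.103), none of 7 activators of Hox genes (Psip1, adjusted p = 0.0935) and none of 11 genes of the retinoic acid pathway, which induces anterior Hox genes (Aldh1a3, adjusted p = 0.0717). The median log2 fold changes of these lists lay between 0.02 for the activators and 0.73 for the noncoding RNA genes, with -0.01 for all genes. In metastatic over primary tumors 0 genes of the 6 lists passed. The microRNA genes of the clusters, Mir10a, Mir10b, Mir196a-1, Mir196a-2, Mir196b and Mir615, had 0 counts in every tumor, in libraries that were not made for small RNA.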

How the data were processed

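RNA of 8 Myc-CaP tumors was analysed, 2 in each of 4 groups taken from the GEO labels. All deposited primary tumors were used here, while the published comparison with metastases used fewer of them. The authors depleted ribosomal RNA, prepared stranded libraries, sequenced paired-end reads of 101 bases, mapped them to mm10 with Bowtie, and kept uniquely mapped reads with up to 2 mismatches. The submitters' processing notes name CASAVA 1.8.2 and TopHat2 2.0. The deposited values are raw counts per gene. The counting tool, its strand setting and the annotation release were not given in the sources used here.

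Counts were tested in R 4.3.3 with edgeR 4.0.16 (filterByExpr, TMM factors, quasi-likelihood test, Benjamini-Hochberg adjustment, threshold 0.05). Metastatic and primary tumors were compared with tumor type as the only term. Phenotype was tested with tumor type as a covariate. The interaction and the comparisons within a phenotype or tumor type came from 1 fit of the 4 groups. CPM (counts per 1000000 of the effective library size) and RPKM (CPM per 1000 bases of GENCODE M21 exons) were computed. Hoxb13 was also tested by exact permutation on log2(CPM + 1). DESeq2 1.42.0 and limma 3.58.1 (voom, duplicateCorrelation) were alternatives, and the fits were tested on simulated data. Python 3.11.15 and matplotlib 3.10.9 were used for levels and figures.

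The members and gene lists were chosen with earlier results of these data known. Named genes were Hoxb13, Hox genes at 1 RPKM or more in all tumors of at least 1 group, and Hox genes with an adjusted p under 0.05 in a comparison. Of each pathway list, the genes that passed were named or, where none passed, the gene with the smallest p. Others are named where a statement rests on them, after their values were seen. Of 38115 gene identifiers, 36343 were in GENCODE M21, and Hoxd4 was matched by name. In the longest coding transcripts of the 39 genes, 0 of 79972 windows of 101 bases matched a transcript of a gene elsewhere with up to 2 mismatches. Total counts were 20905806 to 91886163 per tumor, and a floor of 3 counts covers counting error only. Some genes are not reported here.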

Additional observations from a re-analysis of the deposited data

Results flagged for a closer look

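In groups of 4 tumors, the level of each of the 11 named genes in log2(CPM + 1) was examined for a tumor whose gap to the nearest other, divided by the range of the group, exceeded Dixon's critical value. In 44 such groups 2 had one, and chance gives about 1 in 20. Hoxd4 was lowest in primary AS1 among the AS tumors, at 2.06 against 2.26 to 2.30, with a ratio of 0.854. Hoxd4 was highest in metastatic CR1 among the metastatic tumors, at 2.73 against 2.24 to 2.30, with a ratio of 0.882. Hoxd4 shares 52.3% of its exon bases with other genes.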

How the results depend on the processing

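The call of Hoxd9 by phenotype held under all alternatives, while the count of Hox genes higher in CR tumors, 2, was 7 with DESeq2 (3543 of 17104 genes called in all), 4 with every counted gene kept (3098 of 31875), 1 to 5 with 1 tumor left out (481 to 4133 in all, with 5 and 4133 without primary CR1), and 1 without metastatic AS2 and metastatic CR2 together (an alternative chosen after seeing the data), where Hoxb2 had adjusted p = 0.172. With phenotype as the only term it was 2, Hoxb3 and Hoxd9. Within primary and within metastatic tumors the count, 0, was 2 in each with DESeq2 and 2 in each with every counted gene kept (Hoxb13 and Hoxd9 in primary, Hoxb6 and Hoxd9 in metastatic tumors, among 1132 and 2100 genes in all). Metastatic over primary within CR tumors gave 2, Hoxb6 and Hoxb9, with every counted gene kept, among 375 of 31875 genes (1.18%). Both genes were highest in metastatic CR2. The cause was not tested. The labels call the metastases matched but do not give the pairs: with each of the 4 possible pairings as a replicate block, 0 Hox genes were called in metastatic over primary tumors, as without it. By phenotype, limma-voom with these pairings as a correlated replicate block, added after seeing the data, called 1, 2, 2 and 4 Hox genes (1624 to 2784 genes in all), Hoxd9 each time, against 2 without the block. The estimated correlation was 0.04, -0.09, -0.03 and -0.15.

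The number of genes on in all tumors, 6, was 10 at 0.5 RPKM, 2 at 2 RPKM and 13 at 0.5 CPM, and that on in at least 1 tumor, 11, was 23 at 0.5 CPM. With the length of the longest coding transcript, added after seeing the data, these were 7 and 14.

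Directions turned in values that passed no test. Hoxb9 by phenotype was -0.0145 with every counted gene kept, -0.0404 in limma-voom without a block and -0.0356, -0.0385, -0.0446 and -0.0384 with the pairings, -0.73 without both metastatic tumors and -0.65 to 0.39 with 1 tumor left out. Hoxb13 by phenotype was -0.33 to 0.93 in edgeR and -0.22 to 0.71 in log2(CPM + 1) with 1 tumor left out. In metastatic over primary tumors, leaving out 1 tumor gave -0.0803 to 0.35 for Hoxa5, -0.28 to 0.10 for Hoxa7, -0.0152 to 1.21 for Hoxb13, -0.34 to 0.0778 for Hoxd4 and -0.27 to 0.49 for Hoxd9. Hoxd9 was -0.056 with every counted gene kept and -0.0049 without both metastatic tumors. Of the values of single genes under alternatives, 374 kept their direction and side of the threshold, 22 turned, 9 no longer passed and 2 came to pass. Of those of main results 99 stayed, 23 moved and 2 turned. With 2 tumors a group, small changes of single genes were not detectable.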
